A study of Mus musculus with 4 samples.

Results

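The genes described here make, break down, carry and read retinoic acid: Rdh10, Aldh1a1, Aldh1a2 and Aldh1a3 (synthesis), Cyp26a1 and Cyp26b1 (breakdown), Crabp1 (binding in the cytoplasm) and Rara, Rarb and Rarg (receptors). They were chosen by name, and a probe was counted as theirs where its RefSeq accession maps to 1 of these symbols. All 10 genes were on the array, with 12 probes among 24338 that could be given 1 gene symbol, and they are 10 of 16995 genes with a symbol. RNA came from lung, esophagus, stomach and intestine primordia of ICR mouse embryos, an outbred laboratory strain, at embryonic day E11.5, with no treatment and no altered genotype named in the labels. Each organ was measured on 1 array in 1 colour (Cy3), and all 4 arrays lay on 1 slide. The labels do not say how many embryos went into a sample, and the dissection text of every sample, not the stomach sample alone, speaks of stomach. With 1 array per organ no test between organs was possible, so every difference below is a size without a p-value, and fewer cells of a type cannot be told apart from less RNA per cell.

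Retinoic acid is made from vitamin A by 2 oxidation steps: retinol is turned into retinal by dehydrogenases such as Rdh10, and retinal into retinoic acid by the aldehyde dehydrogenases of the Aldh1a family. Enzymes of the Cyp26 family oxidise retinoic acid and so limit where it acts. In the nucleus it binds receptors of the Rar family, which sit on DNA as partners of Rxr receptors and change transcription of nearby genes. In the embryo it patterns the foregut and its mesenchyme, and lung budding in mice needs it.

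A level here is the log2 of the signal after division by the 75th percentile of the same array, so that 0 is the 75th percentile. The lung array was dim: its 75th percentile was at a signal of 32.0, against 379 in the esophagus, 320 in the stomach and 991 in the intestine, and 39.0% of its spots were well above background, against 67.9% to 74.0% on the other arrays. The lowest level well above background was -2.39 in lung, -5.75 in the esophagus, -5.78 in the stomach and -6.92 in the intestine, so that a gene not well above background in lung has only a bound there. The organ labels were read against defining genes first. Nkx2-1 (lung) was highest on the lung array, Barx1 (stomach mesenchyme) on the stomach array and Cdx2 (intestinal epithelium) on the intestine array. Trp63 and Sox2 were highest on the esophagus array, at 0.31 and 1.09. Nkx2-1 and Sftpc stood at 2.47 and 2.14 in lung. Both were also well above background in esophagus (-1.10 and -1.75), but not in stomach or intestine. Which tissue of the esophagus sample gave this signal was not tested. The error of a single spot, as estimated by the scanner software, was about 0.14 for bright probes and made the error of a difference between 2 arrays 0.20 to 0.32. It covers a spot and leaves out dissection, RNA and labelling.

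Promoter sequences are shown for Rarb and Cyp26a1, because among the members these 2 hold a retinoic acid response element of the direct repeat type next to the start of transcription. Both genes are known in mice as direct targets of retinoic acid, which makes the first a receptor and the second a breakdown enzyme under control of their own ligand. The search covered the RefSeq windows of build GRCm38.p6, from 250 bases before to 50 bases after each start, on both strands, for 2 repeat units spaced by 1, 2 or 5 bases. It held 13 windows of 8 members. Aldh1a3 and Rdh10 are not among the windows used here. The Rarb window is chr14:16575427-16575726 on the minus strand, with the element at positions 16575513 to 16575529, from 53 to 37 bases before the start. The Cyp26a1 window is chr19:37697558-37697857 on the plus strand, with the element at positions 37697776 to 37697792, from 32 to 16 bases before the start, read on the strand opposite to the gene. The stretches below run 5′ to 3′ along each gene, with the element (both repeat units and their spacer) in capitals:
Rarb: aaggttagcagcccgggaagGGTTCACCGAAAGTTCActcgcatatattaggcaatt
Cyp26a1: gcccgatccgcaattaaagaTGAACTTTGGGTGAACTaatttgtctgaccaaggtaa
Read on its own strand with the repeat units in capitals and the spacer in lower case, the elements compare as follows:
Rarb: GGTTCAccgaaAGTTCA
Cyp26a1: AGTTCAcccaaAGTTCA
Both elements have a spacing of 5 bases. A repeat of this spacing was found in 32 of 32851 windows (0.0974%), and in 31 of 27025 genes (0.115%). No member window held a repeat spaced by 1 or by 2, which 0.222% and 0.268% of all windows held. A match describes letters in a window and is not a measured site.

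**Figure D1:**
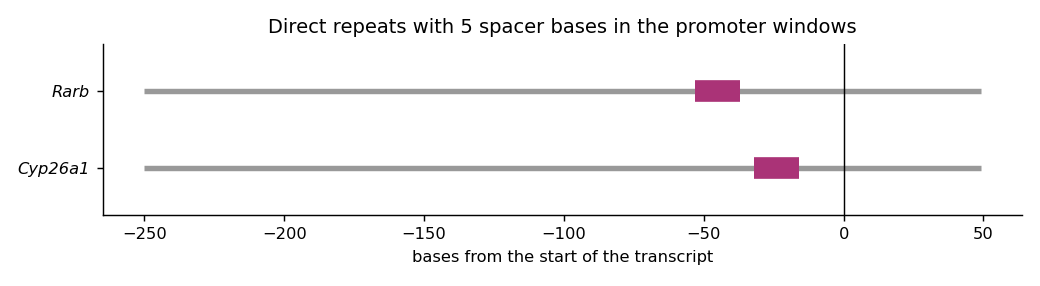
Position of the direct repeat with 5 spacer bases (coloured box) in the promoter windows of Rarb and Cyp26a1, in bases from the start of the transcript (vertical line). The Rarb element lies from 53 to 37 bases before the start, and the Cyp26a1 element from 32 to 16 bases before it.

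The members did not follow 1 pattern over the organs. Rdh10, Aldh1a1, Aldh1a2 and Cyp26b1 were highest in intestine, while the receptors, Crabp1, Aldh1a3 and Cyp26a1 had lower levels in intestine than in esophagus and stomach on this scale (Rarg was lower in stomach than in intestine when the arrays were centred on spike-in RNA). Cyp26a1 showed the widest range among the 10 members, with 15.5-fold between esophagus and intestine, and Rara the narrowest, with 2.27-fold between the same organs; neither was measured in lung. Aldh1a3, Cyp26a1 and Rara were not well above background on the lung array, 3 of 10 members. Among all genes well above background on the other 3 arrays, 26.1% were likewise not measured in lung.

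**Figure D2:**
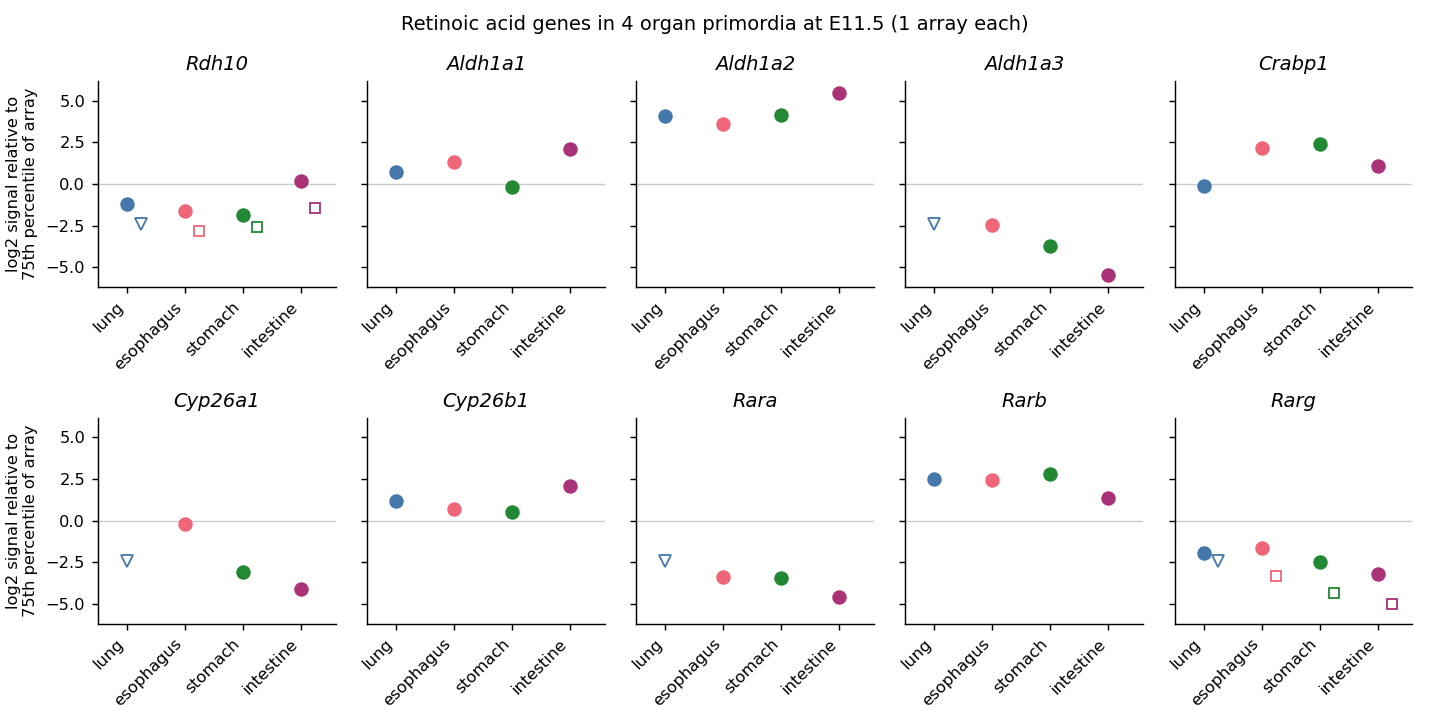
Level of each member in lung, esophagus, stomach and intestine, as log2 signal relative to the 75th percentile of the array (vertical axis, the same in all panels), 1 array per organ. Filled circles are the brightest probe of a gene, open squares the second probe of Rdh10 and Rarg, and open triangles mark the lung array's lowest level well above background, -2.39, where the probe was not measured there. Rdh10, Aldh1a1, Aldh1a2 and Cyp26b1 are highest in intestine, and Cyp26a1 stands at -0.17 in esophagus against -4.13 in intestine.

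Rdh10 makes retinal from retinol and is the main enzyme of that step in the mouse embryo. Its brighter probe stood at -1.18 in lung, -1.62 in the esophagus, -1.89 in the stomach and 0.17 in the intestine. On this scale intestine was thus apart from the other organs, which lay close together: lung, esophagus and stomach spanned 1.63-fold. The place of lung among them moved with the setting. Against stomach, lung ran from 1.33-fold lower with the mean of both probes to 3.10-fold higher with spike-in scaling. Rdh10 was 2.56-fold lower in lung, 3.47-fold lower in esophagus and 4.17-fold lower in stomach than in intestine. The second probe of Rdh10 was not well above background in lung and stood at -2.82 in the esophagus, -2.60 in the stomach and -1.41 in the intestine, so that it too was highest in intestine, by 2.65-fold over esophagus and 2.28-fold over stomach. The probes disagreed on the order of esophagus and stomach, where both differences were small (0.26 and -0.21 on the log2 scale).

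Aldh1a2 is the enzyme that makes most of the retinoic acid of the early mouse embryo, largely in mesenchyme and mesothelium. It stood at 4.06 in lung, 3.62 in the esophagus, 4.16 in the stomach and 5.48 in the intestine. All 4 organs held it far above the 75th percentile of the array, and intestine held the most. Its level was 2.67-fold lower in lung, 3.63-fold lower in esophagus and 2.50-fold lower in stomach than in intestine. Lung and stomach differed by 0.09, less than the spot error of that difference (0.20). The lung values rest on the background correction: with normexp Aldh1a2 was 2.45-fold lower in lung than in stomach. Lung minus esophagus was 0.44 on the scale used here and -0.79 with normexp.

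Aldh1a1, which also oxidises retinal, stood at 0.72 in lung, 1.35 in the esophagus, -0.16 in the stomach and 2.11 in the intestine. Stomach was its lowest organ and intestine its highest. It was 2.84-fold higher in esophagus than in stomach and 4.82-fold lower in stomach than in intestine, the widest gap of the synthesis genes for that pair. Between esophagus and intestine it was 1.69-fold lower in esophagus. Aldh1a7, a close relative of Aldh1a1 named here after its values were seen, had another profile, with 1.97 in lung, 0.93 in the esophagus, 0.85 in the stomach and 1.73 in the intestine.

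Aldh1a3, the third enzyme of the family and mainly epithelial in mouse embryos, ran the other way. It was not well above background in lung, and stood at -2.44 in the esophagus, -3.75 in the stomach and -5.44 in the intestine. Its level was 2.47-fold higher in esophagus than in stomach and 7.99-fold higher in esophagus than in intestine. It was 3.23-fold higher in stomach than in intestine. These steps fell under 2-fold in 1 setting each, to 1.42-fold for esophagus over stomach with normexp background correction and to 1.73-fold for stomach over intestine with spike-in scaling. In order of level, esophagus lay above stomach and stomach above intestine, and each step was several times the spot error.

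The 2 breakdown enzymes differed in where they were high. Cyp26a1 was not well above background in lung and stood at -0.17 in the esophagus, -3.06 in the stomach and -4.13 in the intestine. Esophagus alone held it near the 75th percentile of the array. It was at least 4.66-fold lower in lung than in esophagus, 7.39-fold higher in esophagus than in stomach and 15.5-fold higher in esophagus than in intestine. Between stomach and intestine it was 2.10-fold higher in stomach, but under 2-fold with quantile normalization (1.62), median centring (1.70) and spike-in scaling (1.13), and its unscaled signal was 38.5 in stomach and 56.8 in intestine. The bound for lung against esophagus was under 2-fold, at 1.45-fold, with another background correction (normexp). Esophagus was also the array with the most signal from heart muscle genes: the summed signal of 6 such genes, over the 75th percentile, was 8.90 in lung, 118 in the esophagus, 2.60 in the stomach and 3.86 in the intestine. Whether other tissue in the esophagus sample takes part in its Cyp26a1 level was not tested.

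Cyp26b1 stood at 1.19 in lung, 0.68 in the esophagus, 0.52 in the stomach and 2.06 in the intestine. It was highest in intestine, as the synthesis genes Rdh10 and Aldh1a2 were. It was 1.83-fold lower in lung, 2.59-fold lower in esophagus and 2.90-fold lower in stomach than in intestine. Esophagus and stomach differed by 0.16, less than the spot error of 0.20. Among members well above background on all 4 arrays, the profiles of Cyp26b1 and Rdh10 lay nearer to each other than those of any other pair. Their root mean square difference was 0.21 on the log2 scale after each gene's mean was removed. Aldh1a3, Cyp26a1 and Rara were not compared in this way.

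Crabp1, a protein that binds retinoic acid in the cytoplasm, stood at -0.14 in lung, 2.19 in the esophagus, 2.43 in the stomach and 1.10 in the intestine. Lung was the low organ: Crabp1 was 5.03-fold lower in lung than in esophagus, 5.93-fold lower in lung than in stomach and 2.37-fold lower in lung than in intestine. It was 2.12-fold higher in esophagus and 2.50-fold higher in stomach than in intestine. Crabp1 is known to be strong in neural crest cells and neurons of mouse embryos. The summed signal of 6 markers of enteric neural crest and neurons moved with it, at 4.36 in lung, 13.8 in the esophagus, 14.0 in the stomach and 11.7 in the intestine, and 3 of the 6 were well above background in lung and 6 in each other organ. The part of these cells in the Crabp1 level was not tested.

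Of the receptors, Rarb stood at 2.53 in lung, 2.47 in the esophagus, 2.78 in the stomach and 1.36 in the intestine. Lung, esophagus and stomach lay within 1.24-fold of each other, and intestine was apart. Rarb was 2.26-fold higher in lung, 2.16-fold higher in esophagus and 2.68-fold higher in stomach than in intestine. The lung values rest on the background correction: with normexp Rarb was 1.05-fold higher in lung than in intestine and 2.25-fold lower in lung than in stomach, and lung over intestine was also just under 2-fold, at 1.96-fold with the percentile taken over probes measured on every array and 1.95-fold with quantile normalization. Its probe was printed 10 times per array, and the SD over the copies that were kept (10 in lung, 8 in the esophagus, 10 in the stomach and 6 in the intestine) was 0.05 in lung, 0.05 in the esophagus, 0.05 in the stomach and 0.04 in the intestine. The gap to intestine was wider than the spread over copies. Copies on 1 array share its scaling, so this spread measures neither the error of the scaling between arrays nor the spread between embryos.

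Rarg stood at -1.91 in lung, -1.65 in the esophagus, -2.48 in the stomach and -3.18 in the intestine. It was lowest in intestine, 2.41-fold higher in lung, 2.90-fold higher in esophagus and 1.63-fold higher in stomach than in intestine. Lung minus esophagus was -0.26, smaller in size than its spot error of 0.32. That difference kept its sign under 7 of 11 alternatives and was 0.73 with normexp. For lung over intestine Rarg was 1.83-fold higher with the mean of both probes. It was 1.40-fold higher with the lung array's lowest level as the floor on all arrays. The second Rarg probe was not well above background in lung and stood at -3.30 in the esophagus, -4.32 in the stomach and -4.99 in the intestine, with the same order of organs. Rara was not well above background in lung and stood at -3.41 in the esophagus, -3.42 in the stomach and -4.59 in the intestine. Esophagus and stomach could not be told apart for Rara (0.01, spot error 0.22), and both lay above intestine, by 2.27-fold in esophagus and 2.25-fold in stomach. Each of the 3 receptors thus had its lowest measured level in intestine on this scale, which for Rarg against stomach did not hold with spike-in scaling.

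**Figure D3:**
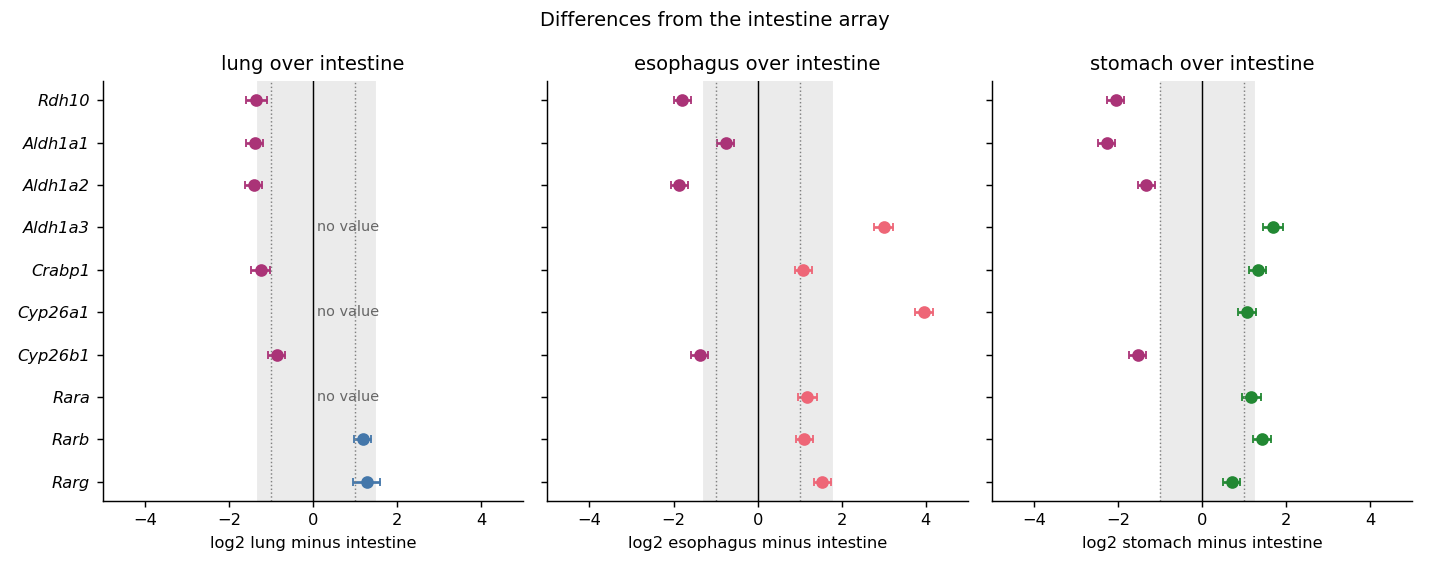
Difference of each member from the intestine array, as log2 lung minus intestine, esophagus minus intestine and stomach minus intestine, 1 array per organ. Bars are the spot error of the difference, dotted lines mark 2-fold, the grey band holds the middle 90% of all genes compared, and "no value" marks genes not measured in lung. Points left of 0 are higher in intestine, among them Rdh10 and Aldh1a2 in all 3 panels, and points right of 0 are higher in the other organ, up to 3.95 for Cyp26a1 in esophagus.

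Counts over the members were set beside those over all genes compared. In esophagus against intestine 9 of 10 members were at least 2-fold apart, 6 higher in esophagus (Aldh1a3, Cyp26a1, Crabp1, Rara, Rarb and Rarg) and 3 lower (Rdh10, Aldh1a2 and Cyp26b1), where 11.9% of all genes were higher and 8.71% lower. In stomach against intestine 9 of 10 were apart as well, 5 higher in stomach (Aldh1a3, Cyp26a1, Crabp1, Rara and Rarb) and 4 lower (Rdh10, Aldh1a1, Aldh1a2 and Cyp26b1), where 7.52% of all genes were higher and 4.87% lower. In esophagus against stomach 3 of 10 were higher in esophagus (Aldh1a1, Aldh1a3 and Cyp26a1) and 0 lower, where 5.63% of all genes were higher and 4.27% lower. Taken without direction, 9 of 10 members stand beside 20.6% of all genes in esophagus against intestine, 9 of 10 beside 12.4% in stomach against intestine, and 3 of 10 beside 9.90% in esophagus against stomach. These comparisons share arrays and are not independent of each other. The counts move with the scaling: with spike-in scaling 4 of 10 members were apart in stomach against intestine, beside 38.1% of all genes.

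The lung comparisons held fewer members. In lung against intestine 7 could be compared, with 2 higher in lung (Rarb and Rarg) and 4 lower (Rdh10, Aldh1a1, Aldh1a2 and Crabp1), where 12.2% of all genes were higher and 8.40% lower. In lung against esophagus 0 of 8 were higher and 2 lower (Crabp1 and Cyp26a1, the second as a bound), where 16.2% of all genes were higher and 9.42% lower. In lung against stomach 0 of 7 were higher and 1 lower (Crabp1), where 14.0% of all genes were higher and 9.87% lower. Without direction, 25.0% of the members and 25.6% of all genes were apart in lung against esophagus, and 14.3% and 23.9% in lung against stomach, so that these counts say nothing of the members beyond the background.

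The intestine level of Aldh1a2 and Rdh10 exceeded that of every other organ by 2-fold or more, as did that of 1.13% of all genes well above background in intestine. With normexp background correction Rdh10 no longer did, being 1.54-fold lower in lung than in intestine, and Cyp26b1 did instead, 2.51-fold lower in lung. Without the lung array Cyp26b1 joined them, with intestine 2.59-fold above the next organ. Cyp26a1 was the 1 member at least 2-fold higher in esophagus than in every other organ, which did not hold against lung with normexp (1.45-fold).

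The size of these differences depends on how the arrays are put on 1 scale, and 2 kinds of member are set out here. Some members were of neither kind. Before scaling, Cyp26a1 had signals of 337 in esophagus and 56.8 in intestine, and Aldh1a3 had 69.7 in esophagus and 22.8 in intestine. Rarg had 121 in esophagus, 57.4 in stomach and 109 in intestine. Before any scaling, the signal of Aldh1a2 was 535 in lung, 4659 in the esophagus, 5709 in the stomach and 44234 in the intestine, and that of Rdh10 was 14.1 in lung, 123 in the esophagus, 86.6 in the stomach and 1117 in the intestine. The intestine array was brighter as a whole, with a 75th percentile 2.61-fold that of esophagus and 3.10-fold that of stomach, and these 2 genes exceeded that gain. Rarb had signals of 186 in lung, 2105 in the esophagus, 2206 in the stomach and 2543 in the intestine, and Crabp1 had 29.1 in lung, 1732 in the esophagus, 1724 in the stomach and 2132 in the intestine. For Rarb and Crabp1 the unscaled signal was about the same in esophagus, stomach and intestine, and their level in intestine was lower after division by its larger 75th percentile. The median spike-in signal was also highest in intestine, at 20810, against 14620 in esophagus and 12511 in stomach. Under all 11 alternatives Rarb and Crabp1 were lower in intestine than in esophagus and stomach, though several of the 11 could not change these differences.

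Other scalings and other processing choices were therefore tried. Rdh10, Aldh1a2 and Cyp26b1 were at least 2-fold lower in both esophagus and stomach than in intestine under all 11 alternatives, as was Aldh1a1 in stomach. Cyp26a1 and Aldh1a3 were at least 2-fold higher in esophagus than in intestine under every alternative that gave a value, 11 and 10. Several alternatives could not change a difference measured on both arrays, among them the own value of dim probes and the restriction to bright genes. The scalings and normexp are those that could move these differences most. The differences of the receptors and Crabp1 moved both ways. With the percentile taken over bright probes alone (those measured on every array), esophagus minus intestine was slightly wider, at 1.28 for Rara, 1.21 for Rarb, 1.63 for Rarg and 1.18 for Crabp1. With median centring it was narrower for all 4, at 0.68 for Rara, 0.61 for Rarb, 1.03 for Rarg and 0.58 for Crabp1. When the arrays were centred on spike-in control RNA instead, a setting added after the data had been seen, esophagus minus intestine was 0.31 for Rara, 0.24 for Rarb, 0.66 for Rarg and 0.21 for Crabp1, none of them 2-fold. Stomach minus intestine was then 0.28 for Rara, 0.53 for Rarb, -0.19 for Rarg and 0.43 for Crabp1, so that the sign for Rarg turned. Under this scaling the median of all genes shifted as well, to -0.98 for esophagus minus intestine and -0.84 for stomach minus intestine, where the 75th percentile scale gave -0.13 for esophagus minus intestine and 0.03 for stomach minus intestine. Such a scaling moves all genes of an array by 1 constant, so a member's place among the other genes is nearly fixed and is no separate check.

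**Figure D4:**
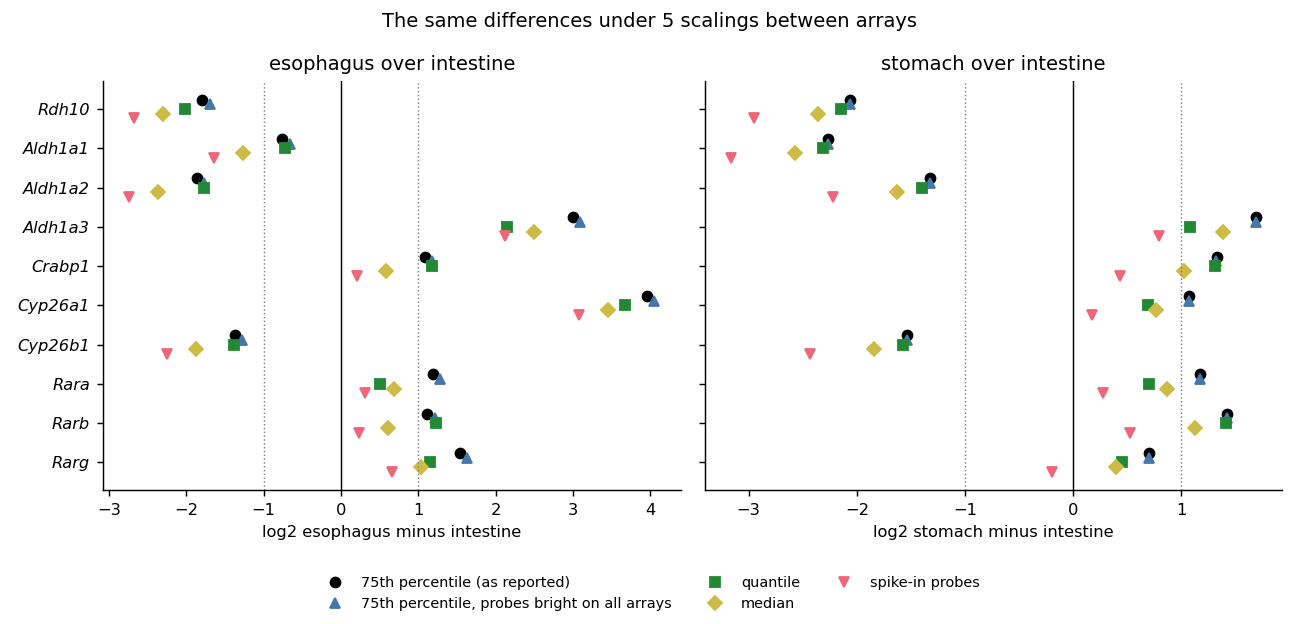
Log2 difference of each member under 5 scalings between arrays, for esophagus minus intestine (left) and stomach minus intestine (right). Dotted lines mark 2-fold. Rdh10, Aldh1a2 and Cyp26b1 stay left of the lower line under all 5, and the receptors and Crabp1 lie right of 0 under the 75th percentile and nearer to 0 under spike-in probes, where Rarg in stomach is at -0.19.

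The other genes of retinoid handling were read from a list of 31, of which 29 were on the array and 26 well above background on at least 1. Cyp26c1 was not among the genes matched. In esophagus against intestine 6 of 24 compared were at least 2-fold higher in esophagus and 3 lower, with a median of 0.30 against -0.13 over all genes. In stomach against intestine 3 of 24 were higher in stomach and 2 lower, with a median of 0.07 against 0.03 over all genes. In lung against intestine 4 of 20 were higher in lung and 1 lower, with a median of 0.14, the value over all genes. In lung against esophagus, lung against stomach and esophagus against stomach 2 genes each were 2-fold apart, of 21, 20 and 23 compared. The share of the list that was apart was 37.5% in esophagus against intestine, where it was 20.6% over all genes, and 9.52% in lung against esophagus, where it was 25.6% over all genes. With spike-in scaling, against intestine, 2 of the list were higher and 9 lower in esophagus, where 4.31% of all genes were higher and 48.7% lower, and 1 was higher and 9 lower in stomach, where 1.51% of all genes were higher and 36.6% lower.

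Adh1, an alcohol dehydrogenase that oxidises retinol, had the widest range of the list: it stood at 2.62 in lung, 0.74 in the esophagus, -0.42 in the stomach and -2.48 in the intestine. Its order of organs was thus lung, esophagus, stomach, intestine, with 34.4-fold between the ends, while Rdh10, which acts on the same step, was highest in intestine. Dhrs3, which turns retinal back into retinol, stood at 2.39 in lung, 2.39 in the esophagus, 2.68 in the stomach and 1.33 in the intestine, and so was lowest where Rdh10 was highest. Rdh12, another retinal reductase, stood at 2.26 in lung, 1.33 in the esophagus, 1.40 in the stomach and 0.93 in the intestine. Bco1, which splits beta-carotene into retinal, was not well above background in lung and esophagus and stood at -5.06 in stomach and -2.61 in intestine, 5.46-fold lower in stomach than in intestine.

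Rbp4, the carrier of retinol in blood, stood at 2.27 in lung, 1.33 in the esophagus, 1.41 in the stomach and 4.73 in the intestine. It was 5.48-fold lower in lung, 10.51-fold lower in esophagus and 9.96-fold lower in stomach than in intestine. Rbp4 is a product of the liver, and the summed signal of 4 liver genes was also highest in intestine, at 24.9 in lung, 9.51 in the esophagus, 3.14 in the stomach and 58.2 in the intestine. Alb, the gene of serum albumin, stood at 1.98 in lung, -0.36 in the esophagus, -2.39 in the stomach and 2.98 in the intestine. The part of liver cells in the Rbp4 level was not tested. Stra6, the membrane receptor of Rbp4, stood at -0.98 in lung, -0.13 in the esophagus, -0.67 in the stomach and -1.28 in the intestine, and was 2.21-fold higher in esophagus than in intestine.

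Crabp2, which hands retinoic acid to the receptors, stood at -0.36 in lung, 0.06 in the esophagus, -0.20 in the stomach and -1.66 in the intestine. Like Crabp1 it was higher in esophagus and stomach than in intestine (3.28-fold and 2.75-fold), but unlike Crabp1 it was not low in lung. The partner receptors Rxra and Rxrb were nearly level, with ranges of 1.38-fold and 1.31-fold over the 4 organs. Rxrg was not well above background in lung and stood at 0.05 in the esophagus, -1.10 in the stomach and -1.89 in the intestine, 3.85-fold higher in esophagus than in intestine.

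Genes known to respond to retinoic acid in other settings were read from a list of 23, which shares some members with the list above, among them Stra6, Dhrs3 and Crabp2. In stomach against intestine 7 of 22 compared were at least 2-fold higher in stomach and 1 lower, with a median of 0.46 against 0.03 over all genes. In esophagus against intestine 5 of 22 were higher in esophagus and 2 lower, with a median of 0.23, and in lung against intestine 6 of 19 were higher in lung and 3 lower, with a median of 0.33. In esophagus against stomach 0 of 23 were higher and 3 lower. In lung against esophagus 3 of 20 were higher and 2 lower, and in lung against stomach 1 of 21 was higher and 4 lower. Without direction, the share apart in esophagus against stomach was 13.0% of the list and 9.90% of all genes. It was 25.0% and 25.6% in lung against esophagus and 23.8% and 23.9% in lung against stomach, near the background. Against intestine it was 36.4% and 12.4% for stomach, 31.8% and 20.6% for esophagus, and 47.4% and 20.6% for lung. The split moves with the scaling, as that of all genes does: with spike-in scaling 0 were higher and 9 lower in esophagus than in intestine, where 4.31% of all genes were higher and 48.7% lower, and 2 were higher and 5 lower in stomach than in intestine, where 1.51% of all genes were higher and 36.6% lower.

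Hoxb1, a Hox gene with retinoic acid response elements in mice, was not well above background in lung and stood at -5.22 in the esophagus, -1.57 in the stomach and -4.83 in the intestine, 12.6-fold lower in esophagus than in stomach and 9.63-fold higher in stomach than in intestine. Hoxb5 stood at 3.37 in lung, 1.04 in the esophagus, 2.42 in the stomach and 1.96 in the intestine, and lung was its highest organ. Hoxa5 stood at 1.72 in lung, 1.54 in the esophagus, 2.01 in the stomach and 0.51 in the intestine, the order of organs that Rarb also had. Nr2f1 and Nr2f2, orphan nuclear receptors, were both highest in stomach. Nr2f1 stood at -1.89 in lung, -2.03 in the esophagus, -0.69 in the stomach and -2.64 in the intestine, and Nr2f2 at 2.65 in lung, 3.67 in the esophagus, 4.42 in the stomach and 3.35 in the intestine. Rarres2, a secreted chemoattractant first found as a retinoid response gene, was highest in intestine: it stood at -1.26 in lung, -0.45 in the esophagus, -0.57 in the stomach and 0.98 in the intestine. Meis1 was lowest in esophagus, at -0.29, against 1.15 in lung, 0.20 in stomach and 0.81 in intestine.

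For the 7 members well above background on all 4 arrays, the genes with the nearest profile were looked up among 9496 others, by the root mean square difference of the log2 levels after each gene's mean over the 4 organs was removed. With 4 values per gene many genes lie close by, so the names are a description. Nearest to Cyp26b1 was Bmp4, a signalling protein of mesenchyme, at 0.03, followed by Irgm1 and Rundc1. Nearest to Rdh10 was Nr5a2, a nuclear receptor of foregut and gut endoderm, at 0.05, followed by Irgm1 and Naaa. Nearest to Rarb were the histone gene H2ac20 (0.03), Dhrs3 (0.04) and Hoxa5 (0.06), of which Dhrs3 and Hoxa5 stand on the lists above. Nearest to Aldh1a2 were Pamr1, Ptpre and Mogat2, and nearest to Rarg were Ash1l, Hs6st2 and Col7a1. Nearest to Crabp1 were Ccdc25, H2ac4 and Man1a. The gene closest to Aldh1a1, Postn, lay farther off, at 0.25, followed by Slc24a3 and Limch1.

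**Figure D5:**
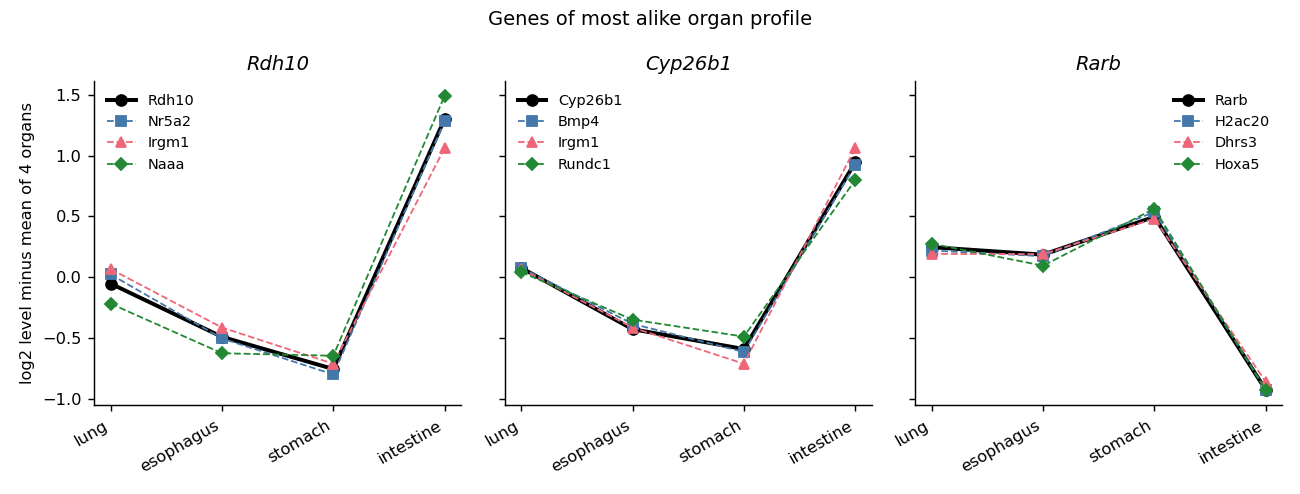
Log2 level minus the mean of the 4 organs for Rdh10, Cyp26b1 and Rarb (black) and the 3 genes of nearest profile to each (colours), 1 array per organ. Bmp4 follows Cyp26b1 to within 0.03 and Dhrs3 follows Rarb to within 0.04 (root mean square difference), and Rarb and its neighbours are lowest in intestine.

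Markers of other cell types were read beside the members that were highest in intestine. Mesothelium, which makes Aldh1a2 in mouse embryos, was marked by 5 other genes whose summed signal over the 75th percentile was 6.73 in lung, 4.28 in the esophagus, 7.84 in the stomach and 11.51 in the intestine, and 4 of the 5 were well above background in lung and 5 in each other organ. Its highest value was in intestine and its lowest in esophagus, as for Aldh1a2. The largest part of the sum was Tcf21, also a gene of mesenchyme, which stood at 1.67 in lung, 1.11 in the esophagus, 2.28 in the stomach and 3.06 in the intestine. Wt1, the defining transcription factor of mesothelium, stood at 1.02 in lung, 0.46 in the esophagus, 1.05 in the stomach and 0.53 in the intestine, so that its highest organs were lung and stomach. The summed signal of 3 pancreas genes was also highest in intestine, at 0 in lung, 0.11 in the esophagus, 0.22 in the stomach and 2.50 in the intestine. In lung 0 of 3 were well above background. The largest part of the intestine sum was Cpa1, at a level of 1.24. Pdx1 was higher in stomach (-3.65) than in intestine (-4.08), and Ptf1a was well above background in intestine alone (-3.69). Kidney and mesonephros genes stayed low, between 0 in lung and 0.07 in stomach, with Pax8 not well above background on any array. Liver genes, given above beside Rbp4, had a summed signal in the order intestine, lung, esophagus, stomach, which is the order of organs for Rdh10 and Cyp26b1. The order of esophagus and stomach was not settled for these 2 genes. The second Rdh10 probe reversed it, and for Cyp26b1 the difference was smaller than its spot error. The part of these cell types, liver included, in the intestine levels of Rdh10, Aldh1a1, Aldh1a2 and Cyp26b1 was not tested.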

How the data were processed

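The RNeasy micro kit and the Agilent Low Input Quick Amp Kit were used for RNA and labelling, per the labels' protocols. The scanner software was Agilent Feature Extraction 10.5.1.1 (protocol GE1_105_Dec08, array design 014868), per the file headers. The deposited intensity values are background-subtracted spot signals on a linear scale that no step has made comparable over arrays. A deposited table for the series has log2 values, and these matched the levels used here (median absolute difference 0.0022 to 0.0046).

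Outlier-flagged spots were left out, copies were averaged, and log2 signal minus the 75th percentile over non-control probes was taken. 69 of 41174 probes were lost to flags, and no spot was saturated. 59.2% of probes had 1 symbol by accession in the RefSeq table of GRCm38.p6. A gene's value was its brightest probe. A probe not well above background entered at the array's lowest level well above background, or at its own if that was higher, giving "at least". A gene was counted at 2-fold or more. No test was made, so every count is of sizes.

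The members, and the lists of genes, were chosen with earlier results of these data known. Named were all members, up to 8 genes per list by range between organs plus 8 set by name, and 3 genes of nearest profile per member. Some genes under this rule are left out of the text. Alternatives were 9 planned and 2 added after seeing the data. Normexp (offset 50) was run on the median spot signal in place of the planned mean signal. The calculations used Python 3.11.15, pandas 2.3.3, R 4.3.3 and limma 3.58.1 and were tested on simulated data.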

Additional observations from a re-analysis of the deposited data

How the results depend on the processing

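Of the 30 differences of at least 2-fold among the members, none turned its sign under the 11 alternatives. They stayed 2-fold in 30 cases with the deposited series table, outlier spots kept or the own value of dim probes, 29 with the mean of all probes or the percentile over bright probes, 26 with quantile normalization, 25 with median centring, 23 with normexp and 21 with spike-in scaling. The deposited table holds nearly the same values as those used here, and of the members only Rarb had several spots per array. The deposited table and the kept outlier spots could therefore hardly change these calls and are no separate check. The own value of dim probes leaves every difference measured on both arrays as it was, and is no separate check of those. The mean of all probes could move only Rdh10 and Rarg, the members with a second probe. Restricting to genes bright on both arrays kept 29 of 29 with a value, which it had to, since it drops genes and changes no value. The lung array's floor on all arrays kept 22 of 24, and it leaves levels above that floor as they were. The count for lung against esophagus, 2 as reported, was 5 with median centring, 5 with spike-in scaling, 4 with the own value of dim probes, 1 with normexp and 1 with genes bright on both arrays. Of all genes 25.6% were 2-fold apart there as reported, 49.5% with median centring and 65.6% with spike-in scaling, so the members' rise goes with that of all genes. For lung against stomach, 1 as reported, it was 4 with median centring, 4 with normexp, 3 with the own value of dim probes and 5 with spike-in scaling. Of all genes 33.0%, 28.1%, 27.2% and 57.6% were apart there in these settings, against 23.9% as reported. For stomach against intestine, 9 as reported, the count was 4 of 10 with spike-in scaling, all lower in stomach. Of all genes 38.1% were apart there under that scaling and 36.6% were lower in stomach, so this count was near the background. The split of esophagus against intestine, 6 higher and 3 lower, was 3 and 4 with median centring, 4 and 3 with normexp and 2 and 4 with spike-in scaling, and that of stomach against intestine, 5 and 4, was 3 and 4 with median centring or quantile normalization. Of all genes, 33.2%, 17.8% and 53.0% were apart in esophagus against intestine with median centring, normexp and spike-in scaling. In stomach against intestine 13.2% were apart with median centring and 10.4% with quantile normalization. The split of lung against intestine, 2 and 4, was 1 and 5 with the percentile over bright probes, 1 and 4 with quantile normalization, 1 and 3 with normexp, 1 and 4 with the mean of all probes or the lung floor (Rarg lost) and 3 and 4 with the own value of dim probes. In these settings between 17.4% (quantile normalization) and 33.0% (normexp) of all genes were apart in that pair. Members 2-fold above every other organ in intestine numbered 2 as reported, 2 with normexp (Cyp26b1 in place of Rdh10) and 3 without the lung array, with median centring, with spike-in scaling and with the percentile over bright probes. Median centring moved the median of all genes by 0.63 for lung minus esophagus and by -0.49 for esophagus minus intestine, and spike-in scaling by 0.97 and -0.85. The dim lung array limits what can be read there. No paired analysis was possible because each organ has 1 array and the labels carry no replicate numbers.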
